A study of Mus musculus with 2 samples.

Results

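The 8 genes described here serve the uptake of fatty acids and the lipases that act outside the cell: Lpl, Lipg, Cd36, Olr1, Fabp4, Fabp5, Slc27a1 and Slc27a4. They were taken by symbol from the 32285 genes of the count matrices. The group was chosen by its place in this pathway and with the KO against WT levels per cell class already known, so those levels and their ratios are a description with no test. The cells were CD45+ immune cells from subcutaneous tumours of B16-F10, a transplantable mouse melanoma line, profiled by droplet single-cell RNA sequencing with 10x Genomics chemistry. One group of tumours came from DGAT1-knockout (KO) B16-F10 cells and the other from WT control B16-F10 cells. DGAT1 makes triglyceride from diacylglycerol. Per the labels' protocols, tumours were collected 14 days after injection, 3 per group, digested with collagenase D and DNase I, and sorted for living CD45+ cells. The deletion was in the implanted tumour cells, and the design text asks how the immune cells differ in such tumours. The sources used here do not give the mouse strain, age and sex, the clone of the KO line or how the gene was deleted. A single library was made per group and its cells cannot be traced to tumours, so no replicate check and no p-value can be had. The exact 95% intervals below are for counting error only.

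Fatty acids reach a cell as lipoprotein triglyceride that a lipase must first cut, as free fatty acid, or inside particles taken up by receptors. Lipoprotein lipase cuts triglyceride of circulating and interstitial lipoproteins, and endothelial lipase acts mainly on their phospholipids. CD36 binds long-chain fatty acids and oxidized lipoproteins at the surface, LOX-1 (encoded by Olr1) binds oxidized low-density lipoprotein, the acyl-CoA synthetases of the SLC27 family trap fatty acids as they enter, and the small binding proteins FABP4 and FABP5 carry them in the cytosol. Tissue macrophages are known to make lipoprotein lipase, CD36 and both of these binding proteins.

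Promoter sequence was at hand for 4 of the 8 members. Those of Cd36 and Olr1 are shown because these surface receptors differed in their ratios in the same phagocytes. Each is a 300-base RefSeq window (GRCm38.p6, minus strand) from 250 bases before to 50 bases after a gene start, at chr5:17835847-17836146 for Cd36 and chr6:129507116-129507415 for Olr1. The Cd36 start used by the table lies inside the gene body given below, so it is not the outermost start, whereas the Olr1 window is at the end of its gene. Capitals mark matches, on either strand, to the nuclear receptor half-site AGGTCA, the promoter box CCAAT, the AP-1 motif TGACTCA, the GC box GGGCGG and the TATA box TATAAA, and no marked matches overlap.
Cd36: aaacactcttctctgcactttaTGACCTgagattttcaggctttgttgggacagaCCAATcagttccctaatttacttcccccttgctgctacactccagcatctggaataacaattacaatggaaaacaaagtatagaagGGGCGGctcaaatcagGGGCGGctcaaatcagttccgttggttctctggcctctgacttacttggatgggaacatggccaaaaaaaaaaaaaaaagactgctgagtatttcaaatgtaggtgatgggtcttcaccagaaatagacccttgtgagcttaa
Olr1: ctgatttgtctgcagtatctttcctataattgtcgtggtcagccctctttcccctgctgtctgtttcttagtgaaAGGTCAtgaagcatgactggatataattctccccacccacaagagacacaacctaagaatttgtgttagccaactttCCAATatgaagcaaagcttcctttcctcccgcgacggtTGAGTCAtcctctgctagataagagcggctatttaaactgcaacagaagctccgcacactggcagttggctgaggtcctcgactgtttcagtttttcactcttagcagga
The Olr1 window held 1 match to TGACTCA, read on the opposite strand 60 bases before the start, and the Cd36 window held none. TGACTCA is in 5.20% of the 32851 promoter windows of the table. AGGTCA, present once in each window, is in 16.3% of them, and CCAAT, also present once in each, is in 37.4%. GGGCGG was found 2 times in the Cd36 window and is in 35.7% of all windows, and TATAAA, in 13.6% of all windows, was in neither. A match describes the letters only.

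The KO library held 202946827 UMIs (counted RNA molecules) and the WT library 235652476. After filtering, 10931 KO and 9041 WT cells remained, with medians of 10803 and 14200 UMIs per cell, and 24 barcodes were kept in both libraries. Cells were assigned to marker-gated classes, each written as X-like. Comparison was limited to 11 classes that reached 100 cells in both libraries. Macrophage-like cells made up 13.6% of kept cells in the KO library and 33.1% in the WT library. The labels name the cell type as melanoma, but 160 KO and 529 WT cells were melanoma-like and the assigned rest carried mainly immune markers. Levels are in CPM, a gene's summed UMIs scaled to a common total within its class and library. Dgat1 stood at 18.8 CPM in melanoma-like cells of the KO library (15.8 to 22.1) and 29.0 CPM in those of the WT library (27.1 to 31.0). Which exon was edited is unknown here, and a 3' tag outside it would still be counted, so this does not check the labels.

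Of 88 pairs of member and class, 57 had at least 50 UMIs over both libraries. In 17 of them the member was at least 1.5-fold lower in the KO library, and in 9 at least 1.5-fold higher. Over all genes and the same classes, 5.57% of pairs were that much lower and 7.12% that much higher, but the members were chosen with this contrast known, so nothing is read from the difference. Lpl, Lipg and Olr1 carried the larger ratios in macrophage-like cells, whereas Cd36, Fabp4, Fabp5, Slc27a1 and Slc27a4 were within 1.5-fold there. Among macrophage-like cells 5.0% of all measured genes were at least 1.5-fold lower and 6.68% higher.

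**Figure D1:**
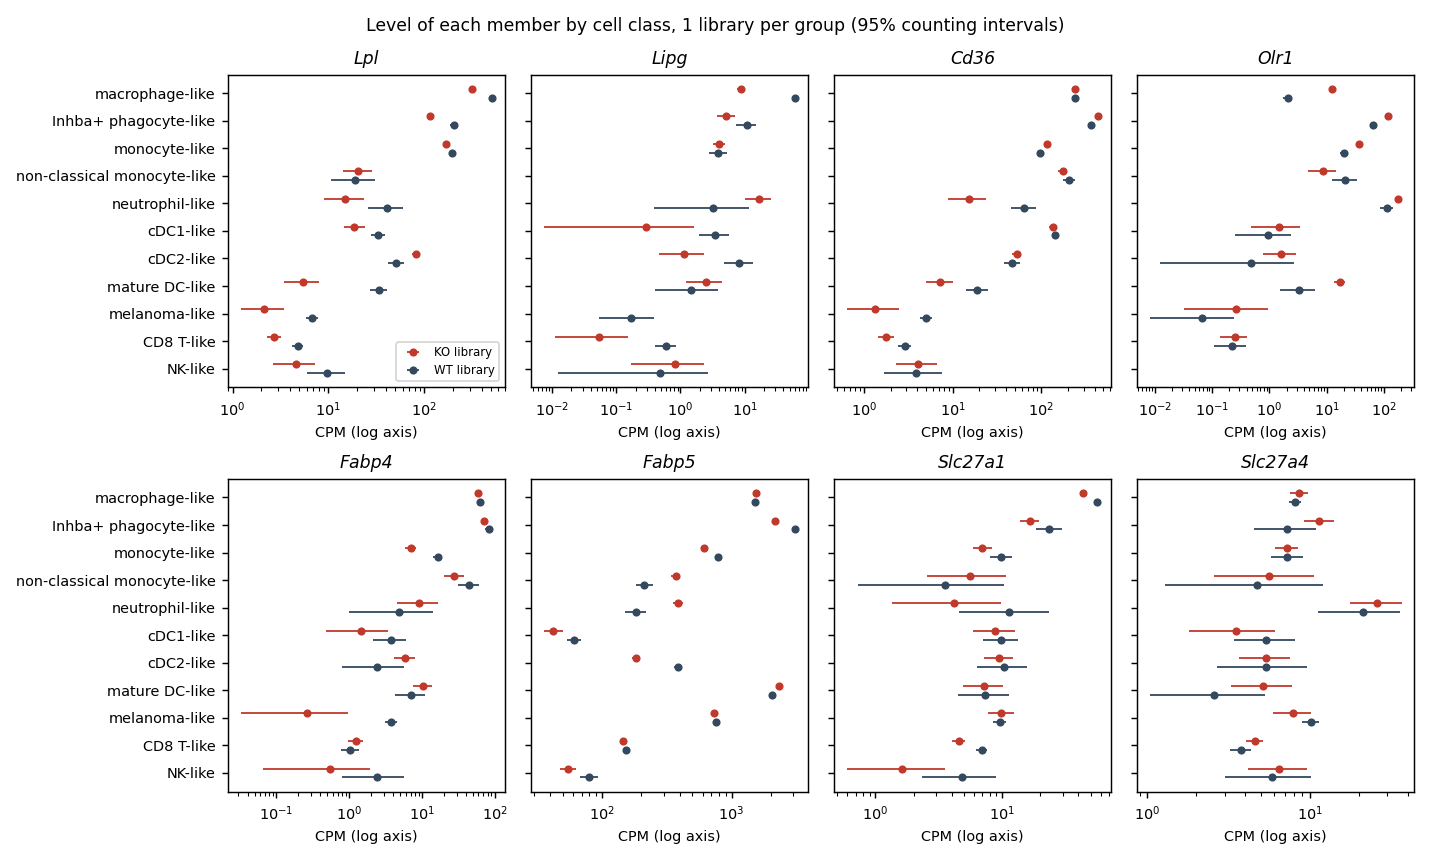
Level of each member in the 11 compared classes, in CPM on log axes, with the KO library (red) above the WT library (dark blue) in each row. Bars are exact 95% counting intervals, there is 1 library per group, and classes without a UMI are left blank. Lpl reached 319 CPM in KO and 518 CPM in WT macrophage-like cells.

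**Figure D2:**
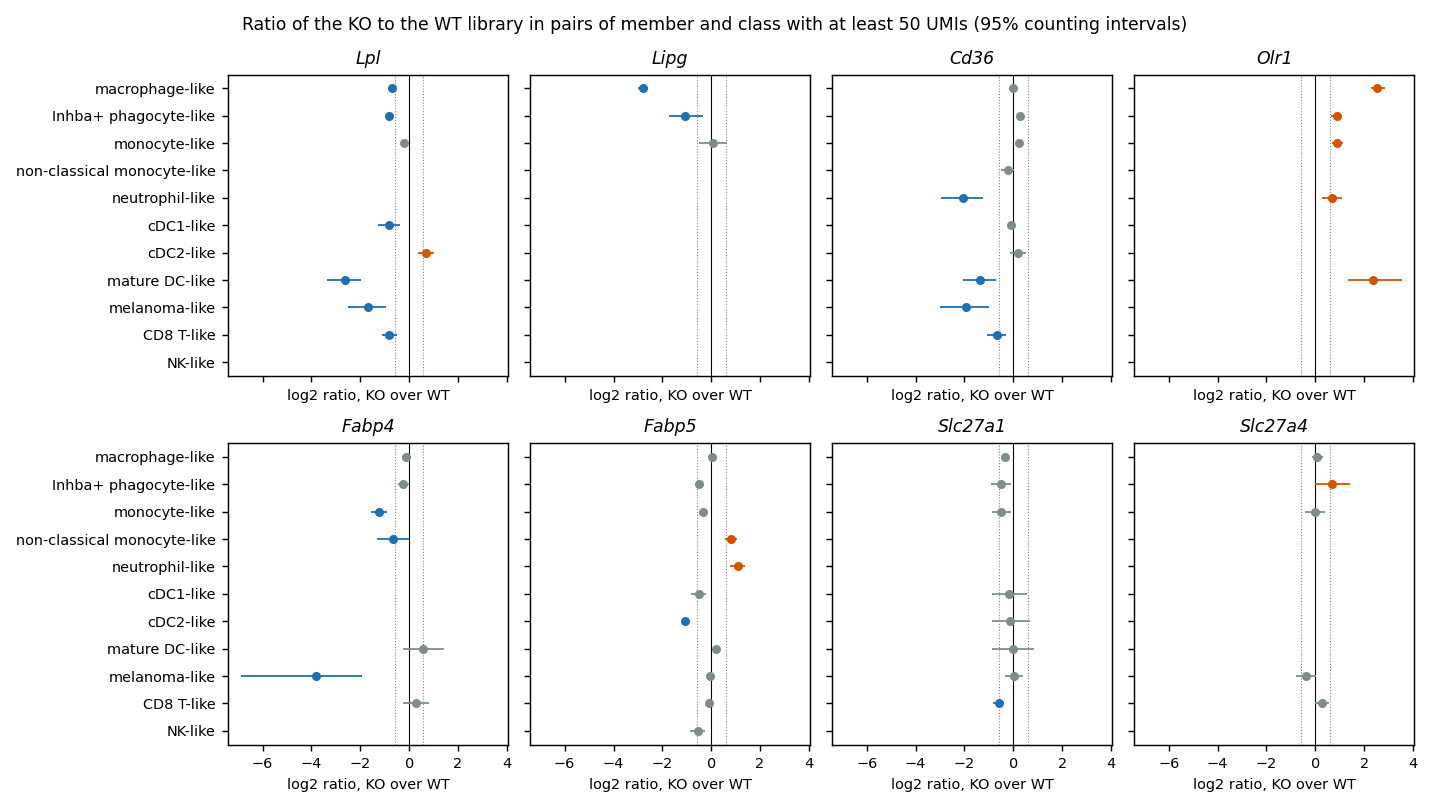
Log2 ratio of the KO over the WT library for the 57 pairs of member and class with at least 50 UMIs. Blue points are at least 1.5-fold lower, orange points at least 1.5-fold higher, grey points lie between the dotted lines, and bars are exact 95% counting intervals. All 5 pairs of Olr1 lie to the right, and 6 of 8 pairs of Lpl are blue.

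Lpl (ENSMUSG00000015568, chromosome 8, 68880491 to 68907448, plus strand, mm10), the gene of lipoprotein lipase, was at 319 CPM in KO macrophage-like cells (312 to 325) and 518 CPM in WT macrophage-like cells (513 to 524). The KO library was lower by 1.63-fold, a log2 ratio of -0.70 (-0.74 to -0.67). Cells were also thinned to 3000 UMIs each to remove the difference in depth. After that, 38.1% of KO macrophage-like cells had an Lpl UMI (35.6 to 40.6) against 53.3% of WT ones (51.4 to 55.1). Before thinning the shares were 65.7% and 77.3%. In CD8 T-like cells, which should lack the gene, the thinned shares were 0.71% and 1.31%. Cells with many Lpl UMIs were fewer too, with 33.2% of KO and 50.4% of WT macrophage-like cells holding at least 5. These last shares are without thinning, and macrophage-like cells had medians of 16521.5 UMIs in KO and 20687 in WT.

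The lower Lpl level was present in each macrophage-like subset. It was 230 CPM in KO and 369 CPM in WT cells that were Arg1-high, 343 and 570 CPM in Arg1-low cells, 371 and 536 CPM in cycling cells, and 325 and 477 CPM in resident-like cells. Log2 ratios lay between -0.73 and -0.53. Macrophage-like cells were also split by the 8 unsupervised clusters that held enough of them, and Lpl was lower in the KO library in 8 of 8, with log2 ratios of -1.98 to -0.46 and 4 of them at least 1.5-fold. The subset mix differed, with cycling cells making up 14.2% of KO and 22.4% of WT macrophage-like cells. That gate counts detected markers without thinning and so depends on depth, which was greater in WT macrophage-like cells. Clusters differed too, and 1 cluster of mainly monocyte-like cells (1196, beside 340 macrophage-like) held 16.4% of the KO and 3.21% of the WT macrophage-like cells. With subsets weighted alike the log2 ratio was -0.62.

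Outside macrophage-like cells, Lpl was also expressed in the neighbouring phagocytes. Inhba+ phagocyte-like cells, gated on Inhba, Slc7a2 and Egln3, had 114 CPM in KO cells (107 to 122) and 205 CPM in WT cells (189 to 221), a log2 ratio of -0.84. Monocyte-like cells had 172 CPM in the KO library and 197 CPM in the WT library, a log2 ratio of -0.19 (-0.27 to -0.11). That ratio was -0.68 over barcodes above the UMI threshold alone and -0.03 without the 10 richest cells of each library. In cDC2-like cells, a class of dendritic cells, the direction was the other one, at 82.2 CPM in KO and 51.3 CPM in WT cells. There 10 cells held 59.2% of the KO and 85.7% of the WT Lpl UMIs, and the log2 ratio of 0.68 was 0.25 with unsupervised clusters, 0.16 with a limit of 5% mitochondrial UMIs, 1.77 after thinning and 2.05 without those cells. In cDC1-like cells, which present antigen to CD8 T cells, Lpl was at 18.8 CPM in KO and 33.0 CPM in WT, on 64 and 141 UMIs, a log2 ratio of -0.81 that was -0.55 over barcodes above the UMI threshold. In mature DC-like cells 10 cells held 91.7% of 24 KO and 92.3% of 91 WT UMIs, at 5.42 and 33.6 CPM.

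CD8 T-like cells had 2.72 CPM in the KO and 4.79 CPM in the WT library, of which free RNA would supply an estimated 72.1% and 83.2%. The log2 ratio was -0.82 as counted, -0.25 with doublets kept and -0.08 with free RNA subtracted. The free RNA estimate came partly from macrophage genes in these same cells, so the shares and the subtracted ratio are no independent check. Melanoma genes alone gave a higher estimate, 3.81% of UMIs in the KO and 3.85% in the WT library. Free RNA itself, read from barcodes of at most 100 UMIs, carried Lpl at 78.9 CPM in the KO library and 168 CPM in the WT library. Melanoma-like cells had 2.13 CPM in KO and 6.82 CPM in WT, on 16 and 202 UMIs, a log2 ratio of -1.68. Free RNA would supply an estimated 1.96 CPM of the KO and 3.99 CPM of the WT level. The ratio stayed past 1.5-fold in 6 of 6 settings that left enough UMIs and cells to read it, fewer than the 10 settings of some other pairs. It was -4.07 with free RNA subtracted, where little of the KO level is left. Macrophage markers summed to 854 CPM in KO and 1284 CPM in WT melanoma-like cells, and their part in the ratio was not tested. NK-like cells had 4.59 CPM in KO and 9.71 CPM in WT, on 17 and 20 UMIs. Over all kept cells together Lpl was at 95.4 CPM in the KO and 213 CPM in the WT library, a log2 ratio of -1.16. That value combines the level per cell with the smaller share of macrophage-like cells, which held 56.2% of the KO and 88.5% of the WT Lpl UMIs.

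Lipg (ENSMUSG00000053846, chromosome 18, 74939322 to 74961263, minus strand) encodes endothelial lipase. In macrophage-like cells it was at 8.69 CPM in KO cells (7.64 to 9.85) and 60.7 CPM in WT cells (58.9 to 62.5), 6.98-fold lower in KO with a log2 ratio of -2.80 (-3.00 to -2.62). The level rested on a minority of cells. After thinning, 0.76% of KO cells (0.38 to 1.36) and 5.15% of WT cells (4.37 to 6.03) had a Lipg UMI, and before it 47 of 1488 and 338 of 2994 did. In CD8 T-like cells the thinned shares were 0.042% in KO and 0.11% in WT. Without thinning, at least 10 Lipg UMIs were found in 7 of 1488 KO and 84 of 2994 WT cells. The 10 richest cells held 73.2% of the KO and 33.1% of the WT UMIs, and without them in each library the log2 ratio was -4.12.

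Lipg lay mainly in cycling and Arg1-low macrophage-like cells. Cycling cells had 17.7 CPM in the KO and 122 CPM in the WT library, and held 43.9% of the KO and 64.95% of the WT Lipg UMIs of the class. Arg1-low cells had 8.38 CPM in KO and 46.7 CPM in WT. Arg1-high cells had 2.02 and 5.23 CPM, on 15 and 62 UMIs. In resident-like cells the counts were 8 KO and 11 WT UMIs, at 7.67 and 2.16 CPM. With subsets weighted alike the log2 ratio of the whole class was -2.30. Of 4 clusters with at least 50 Lipg UMIs in macrophage-like cells, 3 had log2 ratios of -2.60 to -2.50 and 1 was at -0.41.

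Other classes had few Lipg UMIs. Neutrophil-like cells, with 20 KO and 2 WT UMIs and so too few to compare, were at 16.8 CPM in KO and 3.25 CPM in WT. That KO level was above the 8.69 CPM of KO macrophage-like cells, and the direction was the opposite one. Inhba+ phagocyte-like cells had 43 KO and 33 WT UMIs, at 5.19 and 10.8 CPM, a log2 ratio of -1.06 (-1.75 to -0.36). Monocyte-like cells had 4.02 CPM in the KO library and 3.88 CPM in the WT library, which the counting intervals do not separate. Endothelial marker genes, which could point to another source of this lipase, summed to 34.4 CPM in KO and 50.5 CPM in WT macrophage-like cells, with 5 and 6 of 6 detected, and the part of such cells in the result was not tested. Adipocyte markers, a possible source of Lpl and Fabp4, summed to 0.60 CPM in KO and 0.70 CPM in WT macrophage-like cells, with 5 and 6 of 7 detected and Lep at 0 in both. Monocyte markers summed to 914 CPM in KO and 598 CPM in WT macrophage-like cells, with 6 of 6 detected in each library, and their part in the Lpl, Lipg and Olr1 ratios was not tested. Melanoma markers summed to 71.3 CPM in KO and 168 CPM in WT macrophage-like cells, with 6 of 6 detected in each library. Lpl in melanoma-like cells was at 2.13 CPM in the KO library and 6.82 CPM in the WT library. The part of melanoma RNA in the macrophage-like ratios was not tested.

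**Figure D3:**
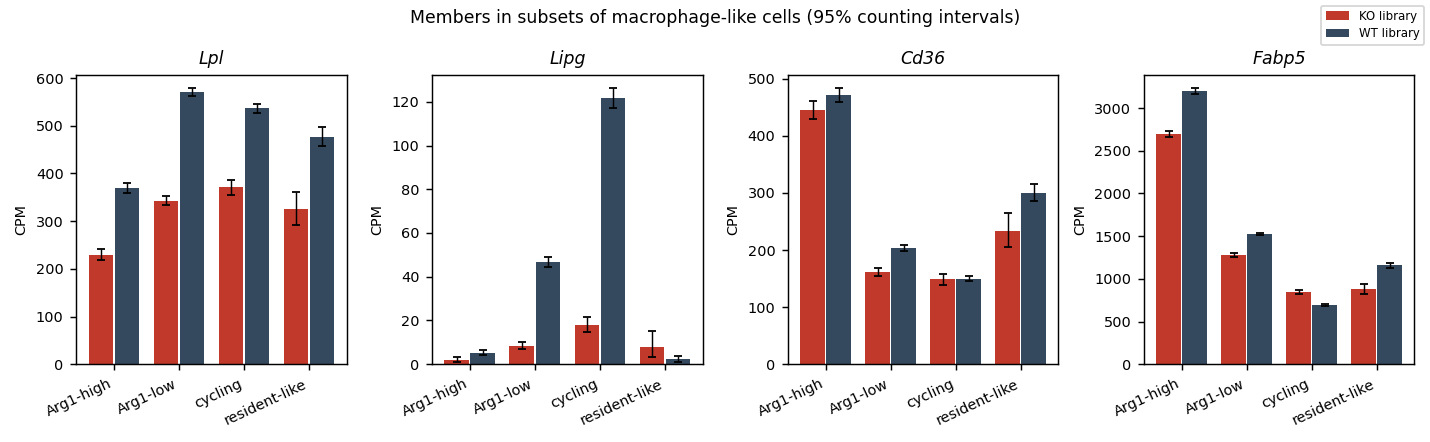
Level of 4 members in the macrophage-like subsets, in CPM, with the KO library (red) left of the WT library (dark blue) and exact 95% counting intervals, 1 library per group. Lpl is lower in the KO library in each subset, Lipg is lower in cycling, Arg1-low and Arg1-high cells, and Cd36 and Fabp5 are highest in Arg1-high cells of both libraries.

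Cd36 (ENSMUSG00000002944, chromosome 5, 17781690 to 17888801, minus strand), the fatty acid and oxidized lipoprotein receptor, was nearly equal in macrophage-like cells. It was at 236 CPM in KO cells (231 to 242) and 239 CPM in WT cells (235 to 242), a log2 ratio of -0.01 (-0.06 to 0.03). Inhba+ phagocyte-like cells had the highest level among compared classes, with 429 CPM in KO (415 to 443) and 359 CPM in WT (338 to 381). Next came macrophage-like cells, then non-classical monocyte-like cells at 174 and 206 CPM, cDC1-like cells at 133 and 142 CPM and monocyte-like cells at 115 and 97.3 CPM. Each of these classes was above the next in both libraries. Within macrophage-like cells Cd36 was highest in the Arg1-high subset, at 446 CPM in KO and 471 CPM in WT, and was 162 and 203 CPM in Arg1-low cells.

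Cd36 was at least 1.5-fold lower in the KO library in 4 classes with low counts. Neutrophil-like cells had 18 KO and 39 WT UMIs, all in 8 cells of each library, at 15.1 and 63.4 CPM. In that class macrophage markers summed to 316 CPM in KO and 678 CPM in WT and monocyte markers to 1039 and 564 CPM, all detected in each library, and their part in its Cd36, Olr1 and Fabp5 ratios was not tested. Mature DC-like cells had 32 and 51 UMIs, and melanoma-like cells 10 and 149. Free RNA would supply an estimated 2.25 CPM in KO and 2.41 CPM in WT, beside 1.33 and 5.03 CPM in melanoma-like cells. In CD8 T-like cells Cd36 was at 1.79 CPM in KO and 2.87 CPM in WT. The free RNA estimate was above the KO level, so its share was capped at 100%, and it was 84.1% in WT. As for Lpl, that estimate came partly from macrophage genes in these same cells. The CD8 T-like ratio stayed past 1.5-fold in 3 of 8 settings, and that of mature DC-like cells was -0.52 with doublets kept. In Inhba+ phagocyte-like cells the log2 ratio of 0.26 was 0.68 without the 10 richest cells of each library. Within macrophage-like cells it ran from -0.98 to 0.77 over 8 clusters, 1 of them at least 1.5-fold lower and 1 higher.

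Olr1 (ENSMUSG00000030162, chromosome 6, 129485244 to 129507165, minus strand), the gene of the oxidized lipoprotein receptor LOX-1, was at least 1.5-fold higher in the KO library in 5 of the 5 classes with enough UMIs. Non-classical monocyte-like cells, with 14 KO and 18 WT UMIs, ran the other way at 8.72 and 21.3 CPM. In neutrophil-like cells, with the highest levels, it was at 180 CPM in KO (157 to 206) and 112 CPM in WT (87.3 to 142), a log2 ratio of 0.68 (0.29 to 1.10). The share of neutrophil-like cells with an Olr1 UMI after thinning was 14.7% in KO (10.2 to 20.2) and 20.2% in WT (13.1 to 28.9), the opposite order with overlapping intervals. The largest count in 1 cell there was 23 in KO and 8 in WT. Inhba+ phagocyte-like cells had 119 CPM in KO (112 to 127) and 65.2 CPM in WT (56.4 to 74.9), a log2 ratio of 0.87. It was 0.52 after thinning, 0.34 with a stricter gate (score 0.35, chosen after seeing the data), 1.58 with unsupervised clusters and 2.67 without the 10 richest cells, which held 63.9% of the KO and 89.9% of the WT UMIs.

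In monocyte-like cells Olr1 was at 37.0 CPM in KO and 19.95 CPM in WT, a log2 ratio of 0.89 (0.67 to 1.12). It was 0.24 with the stricter gate, 0.28 over barcodes above the UMI threshold and 1.61 without the 10 richest cells. In macrophage-like cells it was at 12.2 CPM in KO (10.9 to 13.6) and 2.09 CPM in WT (1.77 to 2.46), a log2 ratio of 2.54 (2.26 to 2.83). Only 49 of 1488 KO and 42 of 2994 WT cells had a UMI, and 10 cells held 81.2% and 74.7% of the UMIs. Without those 10 cells in each library the log2 ratio was 2.12, and with subsets weighted alike 1.61. Arg1-high cells had 18.8 CPM in KO and 9.78 CPM in WT, and Arg1-low cells 14.2 and 0.70 CPM, where 1 KO cell held 100 of the 195 KO UMIs. The thinned shares were 1.53% in KO (0.96 to 2.31) and 0.42% in WT (0.22 to 0.74), against 0.12% and 0.11% in CD8 T-like cells. Neutrophil marker genes in the Olr1-positive macrophage-like cells summed to 67.9 CPM in KO and 72.1 CPM in WT, against 90.1 and 74.5 CPM in the Olr1-negative ones. The markers Inhba, Slc7a2 and Egln3 summed to 299 CPM in KO and 234 CPM in WT Olr1-positive cells, against 147 and 94.1 CPM in Olr1-negative ones, and the part of this gradient in the result was not tested. In Inhba+ phagocyte-like cells the neutrophil markers summed to 657 CPM in KO and 864 CPM in WT Olr1-positive cells. Olr1-negative ones there had 232 and 186 CPM, and the part of this difference in the Olr1 ratio was not tested. In monocyte-like cells these markers summed to 155 CPM in KO and 93.5 CPM in WT Olr1-positive cells, against 144 and 143 CPM. Mature DC-like cells had 75 KO and 9 WT UMIs of Olr1, all in 10 cells or fewer.

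Fabp4 (ENSMUSG00000062515, chromosome 3, 10204088 to 10208576, minus strand) and Fabp5 (ENSMUSG00000027533, chromosome 3, 10012548 to 10016607, plus strand) encode cytosolic fatty acid binding proteins and lie in 1 gene cluster, 187480 bases apart with 6 annotated genes between them. In macrophage-like cells Fabp4 was at 58.8 CPM in KO (56.0 to 61.7) and 63.5 CPM in WT (61.7 to 65.4), a log2 ratio of -0.11, and Fabp5 was at 1541 and 1514 CPM, a log2 ratio of 0.02. Both genes were highest in the Arg1-high subset, where Fabp4 was at 116 CPM in KO and 109 CPM in WT and Fabp5 at 2693 and 3198 CPM. After thinning, 92.8% of the KO and 92.9% of the WT macrophage-like cells with a Fabp4 UMI also had a Fabp5 UMI, against 54.9% and 61.4% of those without one. These shares are a description of cells within 1 class, whose depth was set to 3000 UMIs.

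In monocyte-like cells Fabp4 was at 7.04 CPM in KO (5.92 to 8.31) and 16.6 CPM in WT (14.2 to 19.2), a log2 ratio of -1.23. That direction did not hold with unsupervised clusters, at 0.042, or with the stricter gate, at 0.13. Of the Fabp4 UMIs 10 cells held 38.6% in KO and 73.7% in WT, and without them the ratio was -0.02. Melanoma-like cells had 2 KO and 112 WT UMIs, at 0.27 and 3.78 CPM, where free RNA would supply an estimated 0.57 and 0.97 CPM. In non-classical monocyte-like cells, which patrol vessels, Fabp4 was at 28.0 CPM in KO and 44.9 CPM in WT on 45 and 38 UMIs, while Fabp5 was at 373 CPM in KO (343 to 404) and 213 CPM in WT (183 to 246), a log2 ratio of 0.81. Within macrophage-like cells, Fabp4 log2 ratios ranged from -1.37 to 2.79 over 6 clusters, 3 below and 3 above 0.

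Fabp5 was broadly expressed and reached 50 UMIs in 11 of 11 classes. Inhba+ phagocyte-like cells had 2169 CPM in KO and 3066 CPM in WT, a log2 ratio of -0.50 (-0.54 to -0.46), and mature DC-like cells had 2309 and 2038 CPM, a log2 ratio of 0.18. Mature DC-like cells were the higher of these classes in the KO library and Inhba+ phagocyte-like cells in the WT library, and both lay above macrophage-like cells. Melanoma-like cells had 732 CPM in KO and 761 CPM in WT, monocyte-like cells 614 and 786 CPM, and CD8 T-like cells 145 and 154 CPM. In cDC1-like cells the level was 42.2 CPM in KO and 60.6 CPM in WT, and in NK-like cells 54.8 and 80.1 CPM. Their log2 ratios of -0.52 and -0.55 stayed within 1.5-fold in 3 of 10 and 4 of 9 settings. The other settings put them at least 1.5-fold lower, and all settings ran from -1.18 to -0.07 and from -0.95 to 0.04. In neutrophil-like cells Fabp5 was at 387 CPM in KO (353 to 424) and 184 CPM in WT (151 to 221), a log2 ratio of 1.08. The thinned shares with a UMI were 36.5% and 39.4%, and without the 10 richest cells, which held 53.7% of the KO UMIs, the ratio was 0.57. In cDC2-like cells it was at 182 CPM in KO and 386 CPM in WT, a log2 ratio of -1.08, but 10 cells held 78.5% of the WT UMIs and without them the ratio was 0.27. The thinned shares of cDC2-like cells with a Fabp5 UMI were 27.5% in KO and 23.4% in WT.

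Slc27a1 (ENSMUSG00000031808, chromosome 8, 71568882 to 71587302, plus strand) and Slc27a4 (ENSMUSG00000059316, chromosome 2, 29802634 to 29817522, plus strand) encode the fatty acid transport proteins FATP1 and FATP4, which couple uptake to acyl-CoA synthesis. In macrophage-like cells Slc27a1 was at 43.8 CPM in KO (41.4 to 46.3) and 56.1 CPM in WT (54.4 to 57.9), a log2 ratio of -0.36 (-0.45 to -0.26), within 1.5-fold but with intervals apart. Macrophage-like cells had the highest level of the compared classes, and Inhba+ phagocyte-like cells followed with 16.5 and 23.6 CPM. Plasmacytoid DC-like cells, with 123 KO and only 39 WT cells and so outside the comparison, had 66.0 CPM in KO and 58.7 CPM in WT. The subsets differed, with log2 ratios of 0.10 in Arg1-high and -0.56 in Arg1-low cells. In CD8 T-like cells Slc27a1 was at 4.54 CPM in KO and 6.88 CPM in WT, a log2 ratio of -0.60, just past the 1.5-fold limit, and past it in 5 of 10 settings.

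Slc27a4 was low and even. It was at 8.59 CPM in KO and 8.10 CPM in WT macrophage-like cells, 7.24 and 7.28 CPM in monocyte-like cells and 4.58 and 3.77 CPM in CD8 T-like cells. Neutrophil-like cells had the highest level, 25.96 CPM in KO and 21.1 CPM in WT, on 31 and 13 UMIs. The pair past 1.5-fold was in Inhba+ phagocyte-like cells, at 11.5 CPM in KO (9.28 to 14.0) and 7.2 CPM in WT (4.51 to 10.9), and its ratio interval on the log2 scale, -0.01 to 1.41, holds 0. The log2 ratio of 0.67 was 0.13 with unsupervised clusters.

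Macrophage-like cells held a smaller share of the members' UMIs in the KO library. They held 41.3% of the KO and 76.0% of the WT Cd36 UMIs, 49.3% and 79.7% of Fabp4, and 54.2% and 77.7% of Slc27a1. Inhba+ phagocyte-like cells, 6.23% of KO and 2.51% of WT kept cells, held 22.0% of the KO and 5.01% of the WT Cd36 UMIs. Olr1 UMIs lay mainly in Inhba+ phagocyte-like cells, 38.4% in KO and 28.5% in WT, and in monocyte-like cells, 28.6% and 30.2%. These shares combine cell numbers and levels, and cell numbers are those of the sort.

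**Figure D4:**
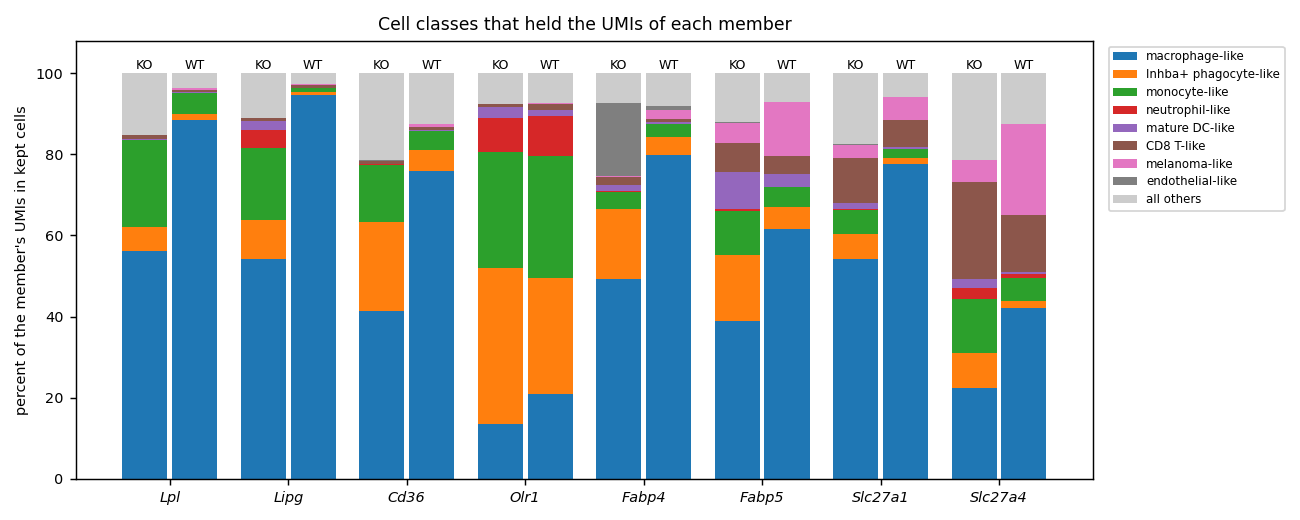
Percent of each member's UMIs in kept cells that lay in each class, with the KO library left of the WT library for each gene. Macrophage-like cells (blue) held 56.2% of the KO and 88.5% of the WT Lpl UMIs, and the dark grey block in the Fabp4 bar of the KO library is 13 endothelial-like cells.

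Other genes of the pathway were read from a list of 68. In macrophage-like cells 43 had at least 50 UMIs, of which 5 were at least 1.5-fold lower in the KO library and 2 higher, with a median log2 ratio of 0.09 beside 0.01 over all genes. The 5 lower genes were Pparg, Nr1h3, Angptl4, Marco and Fabp3. Pparg encodes the nuclear receptor PPARgamma, which is known to drive Cd36, Fabp4 and Lpl. It was at 81.9 CPM in KO and 176 CPM in WT, a log2 ratio of -1.10. Nr1h3, the gene of the oxysterol receptor LXRalpha, was at 49.5 CPM in KO and 78.2 CPM in WT. Of 10 regulators on the list 9 were measured, and the median of these was 0.25.

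Angptl4, whose product inhibits lipoprotein lipase, was at 2.79 CPM in KO and 5.49 CPM in WT macrophage-like cells, on 79 and 383 UMIs. Fabp3, another cytosolic fatty acid binding protein gene, was at 3.5 CPM in KO and 6.08 CPM in WT. The 2 higher genes were Furin, a proprotein convertase known to cleave lipoprotein lipase, at 252 CPM in KO and 159 CPM in WT, and Apoc1, at 1.17 and 0.63 CPM on 33 and 44 UMIs. Marco, a scavenger receptor, was at 5.05 CPM in KO and 9.85 CPM in WT, and the other 10 measured lipoprotein and scavenger receptors were within 1.5-fold. So were the 6 measured genes for activation of fatty acids and the 4 other lipases.

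**Figure D5:**
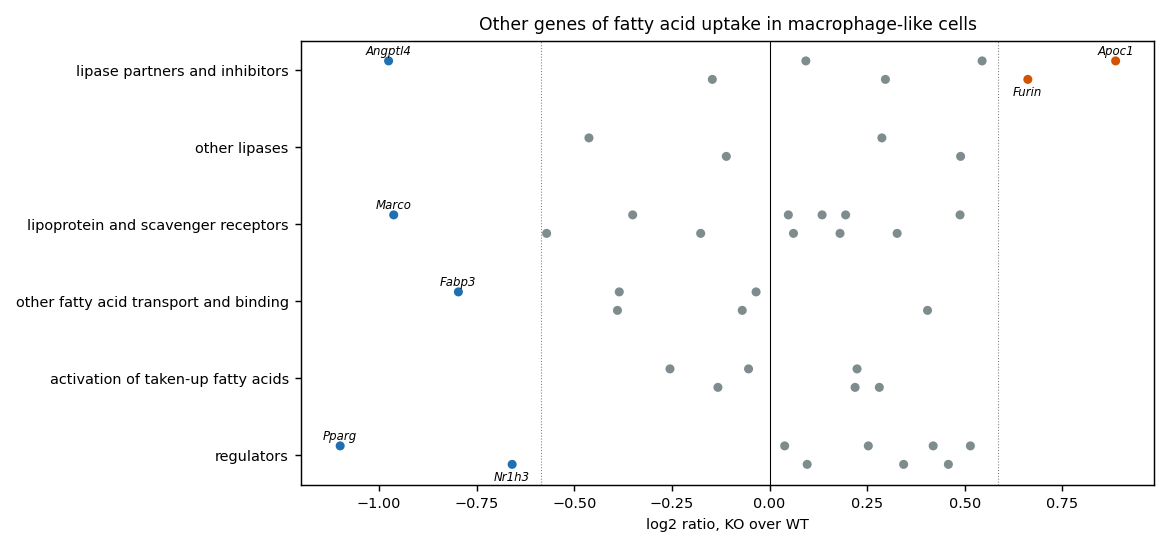
Log2 ratio of the KO over the WT library in macrophage-like cells for the 43 listed genes with at least 50 UMIs, 1 point per gene, by role. Dotted lines mark 1.5-fold, blue points are lower and orange points higher, and Pparg is the lowest at -1.10.

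In monocyte-like cells 39 of the 68 genes were measured, 3 were at least 1.5-fold lower and 0 higher, with a median of -0.02 beside 0.08 over all genes. Pparg was at 19.0 CPM in KO and 44.6 CPM in WT, Nr1h3 at 12.3 and 21.2 CPM and Fabp3 at 2.46 and 7.28 CPM, 3 genes that were also lower in macrophage-like cells. The members in this class were 1 lower, Fabp4, and 1 higher, Olr1, of 8, beside 3.98% lower and 6.48% higher among all genes. In Inhba+ phagocyte-like cells 36 listed genes were measured, 7 lower and 2 higher, with a median of -0.08 beside 0.05, and 2 members were lower and 2 higher of 8, beside 4.74% and 8.83% of all genes. Lipa, the lysosomal acid lipase gene, was at 80.1 CPM in KO and 139 CPM in WT there, a gene picked after its value was seen.

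In CD8 T-like cells 37 listed genes were measured, 5 lower and 0 higher, with a median of -0.11 beside 0.05 over all genes, and 3 of 6 members were lower and 0 higher, beside 6.96% and 3.26%. Those 3 were Lpl, Cd36 and Slc27a1, which kept the call in 7 of 9, 3 of 8 and 5 of 10 settings. Named genes among the lower ones were Pparg, at 0.88 CPM in KO and 2.63 CPM in WT, Cd68, at 8.70 and 14.8 CPM, and Stab1, at 2.28 and 4.13 CPM. Cd68 and Stab1 are known as macrophage genes. Macrophage markers summed to 66.0 CPM in KO and 140 CPM in WT CD8 T-like cells, with 8 of 8 detected in each library, and their part in these ratios was not tested.

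Across the 22 profiles of 11 classes and 2 libraries, which share depth and free RNA within a library, the genes closest to each member on the log2(CPM + 1) scale were found by Pearson's r as a description. For Lpl they were C3ar1 (0.96), Siglec1 (0.95) and Rab11fip5 (0.94). For Lipg they were Pf4 (0.86), Gdf15 (0.80) and Ednrb (0.80). Cd36 was closest to Psap (0.95), Plekhf2 (0.95) and Cd180 (0.94), and Olr1 to Fbxl5 (0.94), Smox (0.94) and Arg2 (0.93). Fabp4 was closest to Nr1h3 (0.94), Acp2 (0.91) and Spic (0.89), and Fabp5 to Car13 (0.89), Dstn (0.87) and Plekhm2 (0.84). The nearest profiles for Slc27a1 were Kitl, C1qa and Ms4a7 (0.86 each), and for Slc27a4 they were Ccdc126 (0.91), Flcn (0.89) and F3 (0.88). C1qa and Ms4a7 are markers of the macrophage-like gate and Pf4 of the platelet-like gate, so the gates partly set these profiles. Among the members, Lpl and Cd36 had the highest r, 0.83, and Cd36 and Slc27a4 the lowest, 0.11.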

How the data were processed

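Per the file headers, the deposited values are raw UMI counts, whole numbers for each gene in each barcode, written by Cell Ranger 7.2.0. The genome build was mm10 per the submitters' processing notes, and gene positions come from GENCODE M21 of that build. The sources used here do not give the annotation and intron setting behind the counts. No files were pooled, and each library was one matrix of all barcodes.

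Barcodes above a UMI threshold (9263 in the KO and 16615 in the WT library) were taken as cells. Smaller barcodes, down to 500 UMIs, were added when a Monte Carlo test set them apart from free RNA (10000 simulations, false discovery rate 0.01). Cells with under 250 genes or over 10% mitochondrial UMIs were removed, as were 346 KO and 156 WT doublets (3.07% and 1.70%) called by Scrublet in scanpy 1.11.5. On thinned copies of large cells with 3000 UMIs or more the calling kept 98.0% in the KO and 98.5% in the WT library, and with 500 to 1500 UMIs 42.0% and 64.5%, so small cells are under-represented, more so in the KO library.

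Each cell went to the class with the highest mean marker score if that was at least 0.25 with at least 2 markers detected, and 1516 KO and 965 WT cells stayed unassigned. A further 837 and 569 lay within 0.05 above the gate. Macrophage-like cells were split at 500 CPM of Arg1 and at 3 of 4 markers for cycling or resident-like cells, and 105 of 1488 KO and 207 of 2994 WT cells lay within 1.5-fold of the Arg1 limit. Rebuilt classes may differ from those of the study. For the clusters, 2000 variable genes, 30 components and 15 neighbours were used with the Leiden method (leidenalg 0.10.2, resolution 1).

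Counts were summed per class and library (numpy 2.4.6, scipy 1.17.1). Levels have exact Poisson intervals, shares exact binomial (Clopper-Pearson) intervals and ratios exact conditional intervals. UMIs that lie in few cells make the true error larger. A ratio was read with at least 50 UMIs over both libraries. Free RNA was estimated at 2.49% of UMIs in the KO library and 2.37% in the WT library by counting macrophage and melanoma genes in CD8 T-like and NK-like cells together. Melanoma genes alone gave 3.81% and 3.85%.

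The members and lists were chosen with earlier results of these data known. Genes named beside the members were, by a rule, the 3 closest profiles of each member among genes with at least 200 UMIs, and listed genes past 1.5-fold, up to 6 each way in macrophage-like and 3 in monocyte-like and CD8 T-like cells. Lipa was named outside this rule. Of the list, 1 gene is not reported here and stays out of its counts and medians. The computation was tested on simulated data. Alternatives are given in the closing section.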

Additional observations from a re-analysis of the deposited data

Results flagged for a closer look

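Olr1 in free RNA was at 10.4 CPM in the KO library and 1.84 CPM in the WT library, on 38 and 10 UMIs. These values come from barcodes of at most 100 UMIs, which supplied the free RNA profile and were not in the compared classes. Unassigned cells also had more Olr1 in the KO library, with 11.03 CPM there and 3.14 CPM in unassigned WT cells.

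In classes too small to compare, Fabp4 was at 4966 CPM in 13 endothelial-like cells of the KO library and 2055 CPM in 7 of the WT library. Cd36 was at 747 CPM in 4 erythroid-like KO cells and 258 CPM in 18 such WT cells. Lpl was at 267 CPM in 14 platelet-like KO cells and 62.2 CPM in 18 such WT cells, on 39 and 13 UMIs. The names of these gates are doubtful. Platelet-like cells had medians of 3127.5 genes in KO and 3253.5 in WT, and most lay in clusters with many macrophage-like cells. Platelet markers summed to 722 CPM in KO and 718 CPM in WT macrophage-like cells. Erythroid-like cells had medians of 4036.5 genes in KO and 319 in WT, so they are not alike.

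Lpl went in opposite directions in classes of dendritic cells, with a log2 ratio of 0.68 in cDC2-like and -2.63 in mature DC-like cells. The cDC2-like value ran from 0.16 to 2.05 over the settings, and the mature DC-like value rests on 24 KO and 91 WT UMIs. Fabp5 had log2 ratios of 1.08 in neutrophil-like and -1.08 in cDC2-like cells, but the cDC2-like value was 0.27 without the 10 richest cells. The differences between classes were not tested, because there is 1 library per group.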

How the results depend on the processing

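Depth, gates and cells rich in UMIs limited the counts. Against 17 lower and 9 higher pairs of 57, barcodes above the UMI threshold alone gave 7 and 1 of 26. Thinning to 3000 UMIs gave 9 lower and 6 higher of 33, and leaving out the 10 richest cells per class and library gave 9 and 9 of 42. A 2-fold limit gave 10 lower and 3 higher. A gate score of 0.35, chosen after seeing the data, gave 12 lower and 5 higher of 47. Fewer pairs had enough UMIs or cells under these settings, apart from the 2-fold limit. Fabp4 in monocyte-like cells reversed to 0.042 with unsupervised clusters and 0.13 with the gate score of 0.35, and Fabp5 in cDC2-like cells to 0.27 without the 10 richest cells, and the cause was not tested. Of 478 recomputed log2 ratios 363 stayed inside the counting interval of the reported value, 112 left it, and 3, those above, changed sign from a value past 1.5-fold. Changes of sign of ratios within 1.5-fold are not counted in the 3. In macrophage-like cells Lpl, Lipg and Olr1 stayed past 1.5-fold in 11 of 11 settings each, at -0.79 to -0.62, -4.12 to -2.30 and 1.61 to 2.72. No paired analysis was possible because each group has 1 library and the ratios come from no test.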
